A study of Mus musculus with 24 samples.

Results

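The genes described here are those of glycolysis, of its control by fructose 2,6-bisphosphate, and of glycogen synthesis and breakdown, measured in the plantar flexor muscles of mice with and without 6 days of hind limb unloading. The list holds 33 genes, chosen for their function with earlier results of these data known. A probe set listed with 1 gene only was found for 29 of them, and all 29 were tested among 11098 genes in all. *Gpi1*, *Pfkfb1*, *Pfkfb4* and *Eno1* were not analysed here. Of the 29 genes, 23 had an intensity above 20 on at least 4 of the 16 wild type and *Nfkb1-/-* arrays. *Hk1*, *Pfkl*, *Pfkp*, *Aldoc*, *Fbp1* and *Pygb* did not. They entered the test through the *Bcl3-/-* arrays, whose scale is higher, and their values on the other arrays were mostly under 20.

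RNA came from the gastrocnemius and plantaris muscles of male mice, 6 weeks old, of 3 genotypes. Wild type (WT) mice were B6129PF2/J, *Nfkb1-/-* mice, which lack p50, were B6;129P2-Nfkb1tm1Bal/J, and *Bcl3-/-* mice, which lack the coactivator Bcl-3, were FVB;129P2-Bcl3tm1Ver/J. Both deletions are present in every tissue of the mouse. Each genotype had 4 weight bearing (WB) and 4 hind limb unloaded (HU) mice, with 1 array per mouse, and the comparison asked whether unloading changed the genes and whether p50 or Bcl-3 was needed for the change. The values are linear intensities on an Affymetrix array, whose number of arrays limits the precision.

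The WT and *Nfkb1-/-* arrays had median intensities of 11.6 to 11.9 and the *Bcl3-/-* arrays had medians of 81.1 to 86.8. Levels of the *Bcl3-/-* mice are therefore not set against the others, and only the responses to unloading are compared. The scale of the arrays, the strain background and the *Bcl3* genotype cannot be told apart in any such difference. The mean correlation of an array with the others of its group was between 0.981 and 0.996. No probe set is listed for *Nfkb1*, so the deletion of p50 was not checked. Of 8 skeletal muscle markers (*Ckm*, *Acta1* and others), all 8 were above 20 on at least 1 array of each genotype. On the *Bcl3-/-* arrays this does not mark out muscle. There 20 lies far under the array medians, and all tested markers of the other cell types passed it as well. The tissue is bulk muscle, in which fewer cells of a type and less RNA per cell cannot be told apart.

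Glycolysis breaks glucose or glycogen down to pyruvate and lactate and is the main rapid source of ATP in fast muscle fibres, which fill most of these muscles. Its flux is set at phosphofructokinase, which fructose 2,6-bisphosphate activates and which fructose bisphosphatase opposes. Glycogen synthase and branching enzyme build the store, and glycogen phosphorylase, switched on by phosphorylase kinase, releases it.

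Unloading moved a few of these genes by a large amount. *Pfkfb3*, which makes the activator of phosphofructokinase, and *Fbp2*, the muscle fructose bisphosphatase, rose in both knockouts, and *Ldhb*, the heart type subunit of lactate dehydrogenase, fell in both. Changes are given as log2 fold change, HU minus WB, with the standard error (SE) of the limma fit, and a gene counts as called when its p, adjusted by Benjamini and Hochberg's method over all probe sets tested, is under 0.05. In WT muscle 0 of 29 genes were called higher, where 2.18% of all genes were, and 0 were called lower, where 1.75% of all genes were. *Pfkfb3*, *Fbp2* and *Ldhb* moved there in the same directions as in the knockouts, by 0.83, 0.43 and -0.44, without being called. At an unadjusted p under 0.05 the same limma fit had 6 of the 29 in WT muscle (20.7%), near the share of all genes (18%).

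Unloaded *Nfkb1-/-* muscle had 3 genes that rose (*Pfkfb3*, *Fbp2* and *Pfkm*), against 5.22% of all genes, and 2 fell (*Ldhb* and *Pgam2*), against 7.02% of all genes. Unloaded *Bcl3-/-* muscle had 4 genes that rose (*Pfkfb3*, *Fbp2*, *Gpd2* and *Phka1*), against 7.5% of all genes, and 2 fell (*Ldhb* and *Hk1*), against 2.99% of all genes. The median change of the 29 genes was -0.04 in WT, 0.01 in *Nfkb1-/-* and 0.07 in *Bcl3-/-* muscle. Over all genes tested the medians were -0.01, -0.00 and 0.01. Changes smaller than 0.2 in either direction were seen for 22 of the 29 genes in WT, 20 in *Nfkb1-/-* and 20 in *Bcl3-/-* muscle. These are 75.9%, 69% and 69% of the list, near the shares of all genes tested (74.3%, 67.8% and 65.4%). The counts and medians include *Hk1*, *Pfkl*, *Pfkp*, *Aldoc*, *Fbp1* and *Pygb*, mostly under 20 on the WT and *Nfkb1-/-* arrays. Each of these was within 0.2 of 0 in *Nfkb1-/-* muscle, and each but *Hk1* (-0.31) in WT muscle. Small changes at such low signal say little about the genes.

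**Figure D1:**
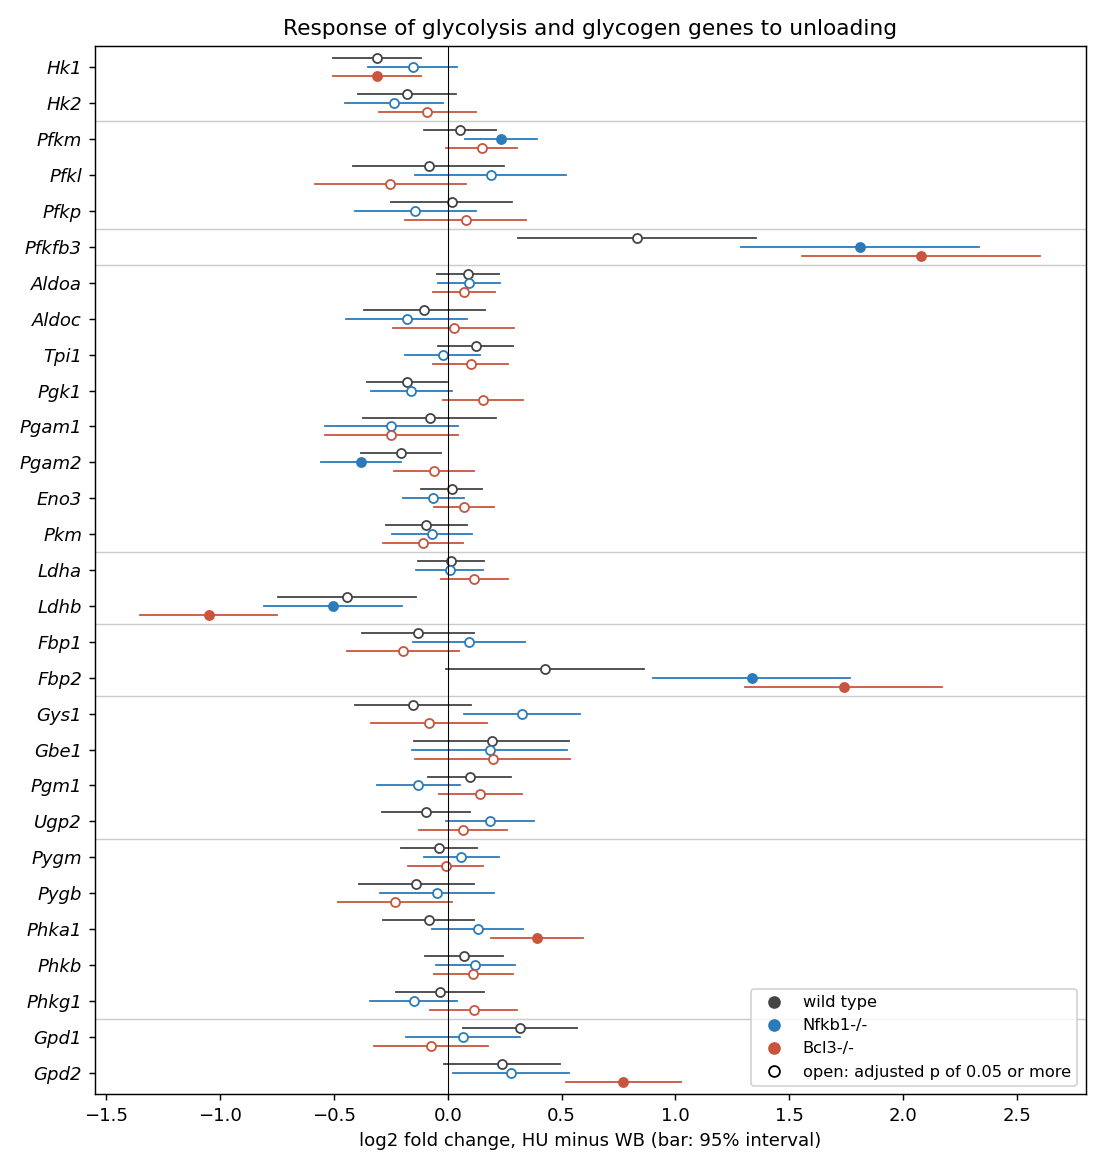
Log2 fold change with unloading (HU minus WB, horizontal axis) of each of the 29 genes (rows, grouped by role between grey lines) in WT, Nfkb1-/- and Bcl3-/- muscle, with 95% intervals as bars and filled points for an adjusted p under 0.05. Pfkfb3 and Fbp2 lie far to the right and Ldhb to the left, and 20 to 22 genes in each genotype stay within 0.2 of 0.

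*Pfkfb3*, *Fbp2* and *Ldhb* had the largest changes, and the bases before their start sites are shown so that the genes that rose can be set beside the one that fell. The windows are the 250 bases upstream of the starts that RefSeq lists (GRCm38.p6), written 5′ to 3′ on the minus strand, where all of these genes lie. First and second give only the order of the *Pfkfb3* windows. The outer end of *Pfkfb3* (chr2:11554071) lies inside its first window, so part of that window, with the marked core, is within the annotated gene. Capitals mark ACGTG on either strand, called the core here. It is 1 form of the core of the hypoxia response element and overlaps the E-box CACGTG. The other form, GCGTG, was neither searched nor marked. Its letters stand in the *Ldhb* window and in the second *Pfkfb3* window.
*Fbp2*, chr13:62858401-62858650: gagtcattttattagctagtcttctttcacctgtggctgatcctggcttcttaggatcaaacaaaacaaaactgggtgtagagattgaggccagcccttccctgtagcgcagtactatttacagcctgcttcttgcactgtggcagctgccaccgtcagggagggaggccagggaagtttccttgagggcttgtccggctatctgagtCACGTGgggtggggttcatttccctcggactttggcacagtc
*Pfkfb3*, first start, chr2:11553930-11554179: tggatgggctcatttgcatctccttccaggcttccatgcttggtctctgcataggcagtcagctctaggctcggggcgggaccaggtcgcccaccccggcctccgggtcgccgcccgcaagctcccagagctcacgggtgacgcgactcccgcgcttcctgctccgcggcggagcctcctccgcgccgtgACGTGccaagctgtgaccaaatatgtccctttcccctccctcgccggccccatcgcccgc
*Pfkfb3*, second start, chr2:11502091-11502340: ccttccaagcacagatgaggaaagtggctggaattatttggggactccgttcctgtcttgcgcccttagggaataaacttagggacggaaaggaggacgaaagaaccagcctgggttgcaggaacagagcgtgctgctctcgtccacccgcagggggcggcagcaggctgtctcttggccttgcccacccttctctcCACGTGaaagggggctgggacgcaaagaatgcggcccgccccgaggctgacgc
*Ldhb*, chr6:142507958-142508207: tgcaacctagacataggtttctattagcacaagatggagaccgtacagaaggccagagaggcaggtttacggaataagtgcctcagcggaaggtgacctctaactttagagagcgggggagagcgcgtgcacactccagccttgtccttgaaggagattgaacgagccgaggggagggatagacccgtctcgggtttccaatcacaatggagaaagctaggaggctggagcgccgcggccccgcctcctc

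The *Fbp2* window and the second *Pfkfb3* window each hold 1 E-box, and the first *Pfkfb3* window holds ACGTG without the E-box. Neither CACGTG nor ACGTG is in the *Ldhb* window, which holds the unsearched form GCGTG. Over all 32851 upstream windows of this length, 6.02% hold CACGTG and 16.6% hold ACGTG on either strand. By gene, the shares are 6.86% and 18.5% of 27025 genes. Upstream windows were found for 32 of the 33 listed genes. Of these, 4 hold the E-box (*Pfkm*, *Pfkfb3*, *Ldha* and *Fbp2*) and 14 hold the core. The 14 include *Pfkfb3*, *Fbp2*, *Pfkm* and *Gpd2*, each called higher in a knockout. The others were called in no genotype by their representative probe set (*Hk2*, *Aldoa*, *Pgk1*, *Pgam1*, *Pkm*, *Ldha*, *Pygm*, *Pygb*, *Pgm1* and *Ugp2*). *Phka1*, also called higher in a knockout, is not among the 14. Nor are *Ldhb*, *Pgam2* and *Hk1*, each called lower in a knockout. The NF-κB consensus, also searched on both strands, is in 7.25% of the windows, in those of 3 listed genes (*Pfkm*, *Pgk1* and *Pgm1*), and in none of the windows shown. These matches describe letters and no binding was measured on them here.

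*Pfkfb3* encodes a kinase that raises fructose 2,6-bisphosphate. *Pfkfb3* intensities in WT muscle were 150.5, 187, 334 and 251 in WB mice and 372, 454, 417 and 335 in HU mice. *Pfkfb3* measured 146, 85.8, 240.4 and 158 in WB *Nfkb1-/-* mice and 513, 709, 519.7 and 383 in HU *Nfkb1-/-* mice. *Pfkfb3* measured 489, 307, 329 and 428 in WB *Bcl3-/-* mice and 1909, 1510.2, 1256 and 1859 in HU *Bcl3-/-* mice. Every HU array was above every WB array within each genotype, although the gap in WT mice was narrow, between WB replicate 3 and HU replicate 4.

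The log2 fold change of *Pfkfb3* was 0.83 (SE 0.25, adjusted p = 0.064) in WT muscle, where it missed the threshold. It rose 3.51-fold in *Nfkb1-/-* muscle, a log2 change of 1.81 (SE 0.25, adjusted p = 0.00012), and 4.23-fold in *Bcl3-/-* muscle, a log2 change of 2.08 (SE 0.25, adjusted p = 3.1e-05). Without WT WB replicate 3 the WT change was 1.03 with an adjusted p of 0.029. The fit also called the WT change, still at 0.83, without *Nfkb1-/-* WB replicate 2 (adjusted p = 0.037) or without *Nfkb1-/-* WB replicate 3 (adjusted p = 0.044), which contribute only to its estimate of the spread. The WT response minus the *Nfkb1-/-* response was -0.98 (SE 0.36, adjusted p = 0.26), and the WT response minus the *Bcl3-/-* response was -1.25 (SE 0.36, adjusted p = 0.095). Neither difference passed the test. Part of the first lies in the WB mice, where *Nfkb1-/-* minus WT was -0.58 (SE 0.25, adjusted p = 0.56). The HU means were 394 in WT and 531 in *Nfkb1-/-* mice. The *Nfkb1-/-* response minus the *Bcl3-/-* response was -0.27, with a 95% interval of -1.01 to 0.47.

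The second probe set of *Pfkfb3* gave like changes in WT (0.80) and *Nfkb1-/-* muscle (1.69, adjusted p = 0.0025). In *Bcl3-/-* muscle it read 39.4, 67.7, 41.9 and 96.1 in WB and 141, 70.8, 87.8 and 116 in HU mice, a change of 0.81 with an adjusted p of 0.14. The 2 probe sets therefore disagree on the size of the rise in *Bcl3-/-* muscle, and only 1 of them was called there. The second read around the medians of those arrays (81.1 to 86.8), far under the first. The part of this low signal in the disagreement was not tested.

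*Fbp2* encodes the muscle enzyme that removes a phosphate from fructose 1,6-bisphosphate, the reverse of the phosphofructokinase step. *Fbp2* intensities in WT muscle were 204, 194, 158 and 81.6 in WB mice and 144, 219, 226 and 236 in HU mice. *Fbp2* measured 139, 157, 156 and 119 in WB *Nfkb1-/-* mice and 331, 375, 462 and 288 in HU *Nfkb1-/-* mice. *Fbp2* measured 428, 424, 443 and 406 in WB *Bcl3-/-* mice and 1425, 1517, 1639 and 1141 in HU *Bcl3-/-* mice. The groups overlapped in WT mice, where WB replicate 4 and HU replicate 1 were low, and they were well separated in both knockouts.

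In WT muscle the log2 fold change of *Fbp2* was 0.43 (SE 0.21, adjusted p = 0.28), and without WB replicate 4 it was 0.13 (adjusted p = 0.81). The gene rose 2.52-fold in *Nfkb1-/-* muscle (log2 change 1.34, SE 0.21, adjusted p = 0.00033) and 3.34-fold in *Bcl3-/-* muscle (log2 change 1.74, SE 0.21, adjusted p = 2.9e-05). Of the 29 genes, *Fbp2* was the 1 gene whose WT response differed from the *Bcl3-/-* response, by -1.31 (SE 0.30, adjusted p = 0.031), where 1.17% of all genes did. That call was lost (adjusted p from 0.052 to 0.073, differences from -1.31 to -1.15) in 8 of 24 fits that each left out 1 array. Those arrays were WT WB replicates 1, 2 and 3, WT HU replicate 1, *Bcl3-/-* WB replicate 2 and *Bcl3-/-* HU replicates 1, 2 and 3. The WT response minus the *Nfkb1-/-* response was -0.91 (SE 0.30, adjusted p = 0.2), and without WT WB replicate 4 it was -1.20 with an adjusted p of 0.022. Between the knockouts the difference was -0.40, with an interval of -1.02 to 0.21.

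No gene of the list was called for the difference between the WT and *Nfkb1-/-* responses, where 0.207% of all genes were, and 4 had an unadjusted p under 0.05 in limma (13.8%, against 12.3% of all genes). The count between the *Nfkb1-/-* and *Bcl3-/-* responses was also 0, against 1.74% of all genes, with 6 at an unadjusted p under 0.05 in limma (20.7%, against 18.2% of all genes). Between the WT and *Bcl3-/-* responses, where *Fbp2* was called, 7 had an unadjusted p under 0.05 in limma (24.1%, against 13.4% of all genes). These comparisons share the HU and WB arrays of a genotype in pairs. In WB mice, 0 of 29 genes differed between *Nfkb1-/-* and WT muscle, against 0.856% of all genes, and the limma fit had 2 at an unadjusted p under 0.05 (6.9%, against 7.79% of all genes). Those were *Pfkfb3*, at -0.58, and *Gys1*, at -0.33 (*Nfkb1-/-* minus WT).

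*Ldhb* encodes the lactate dehydrogenase subunit that prevails in slow fibres and in heart. *Ldhb* intensities in WT muscle were 377, 457, 399 and 420.4 in WB mice and 221, 356, 315 and 343 in HU mice. *Ldhb* measured 371, 476, 564 and 452 in WB *Nfkb1-/-* mice and 270.2, 412, 338 and 296 in HU *Nfkb1-/-* mice. *Ldhb* measured 3848, 4099.9, 3864 and 3311 in WB *Bcl3-/-* mice and 1629.8, 2038, 1639 and 2018 in HU *Bcl3-/-* mice. The HU arrays lay below all WB arrays in WT and *Bcl3-/-* mice, and in *Nfkb1-/-* mice HU replicate 2 lay above WB replicate 1.

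The log2 fold change of *Ldhb* was -0.44 (SE 0.15, adjusted p = 0.092) in WT muscle, short of the threshold, and -0.29 (adjusted p = 0.31) without HU replicate 1. *Ldhb* fell in *Nfkb1-/-* muscle, with -0.50 (SE 0.15, adjusted p = 0.027), and in *Bcl3-/-* muscle, with -1.05 (SE 0.15, adjusted p = 0.00014), where the HU level was 0.48 times the WB level. All 4 probe sets of the gene were called lower in both knockouts and 1 of the 4 was called lower in WT muscle (-0.57, adjusted p = 0.032). That probe set and 1 other of the 4 bear the suffix that Affymetrix gives to probe sets which may also bind similar transcripts. The changes of the 4 ran from -0.57 to -0.43 in WT, from -0.70 to -0.50 in *Nfkb1-/-* and from -1.22 to -1.05 in *Bcl3-/-* muscle. The call of the representative probe set in *Nfkb1-/-* muscle was lost without WB replicate 2, 3 or 4 or HU replicate 1 or 4 of that genotype (changes from -0.51 to -0.41, adjusted p from 0.057 to 0.1). The WT and *Nfkb1-/-* responses exceeded the *Bcl3-/-* response by 0.61 (adjusted p = 0.17) and 0.55 (adjusted p = 0.16), and neither difference passed. The WT response minus the *Nfkb1-/-* response was 0.06 (SE 0.21, adjusted p = 0.94).

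*Ldha*, the subunit that prevails in fast fibres, had log2 fold changes of 0.01, 0.01 and 0.12 in WT, *Nfkb1-/-* and *Bcl3-/-* muscle, none of them called. Slow fibre markers (*Myh7*, *Tnnt1*, *Myl2* and others, 10 of 10 tested) moved with *Ldhb* in *Bcl3-/-* muscle, where 8 of 10 were called lower and 0 higher, with a median change of -0.76. Their summed intensity there was 33361 to 39245 in WB mice and 18657 to 21432 in HU mice. In *Nfkb1-/-* muscle, where *Ldhb* also fell, 4 of the 10 were called higher and 0 lower, with a median of 0.38 and sums of 3944 to 6097 in WB and 3806 to 8175 in HU mice. In WT muscle 0 of 10 were called in either direction, with a median of 0.39 and sums of 5419 to 7175 in WB and 6641 to 9081 in HU mice. Of all genes, 2.99% were called lower in *Bcl3-/-* and 5.22% higher in *Nfkb1-/-* muscle. All 10 slow fibre markers were above 20 on some array of each genotype, though 20 lies far under the *Bcl3-/-* array medians. The part of the slow fibres in the fall of *Ldhb* was not tested.

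**Figure D2:**
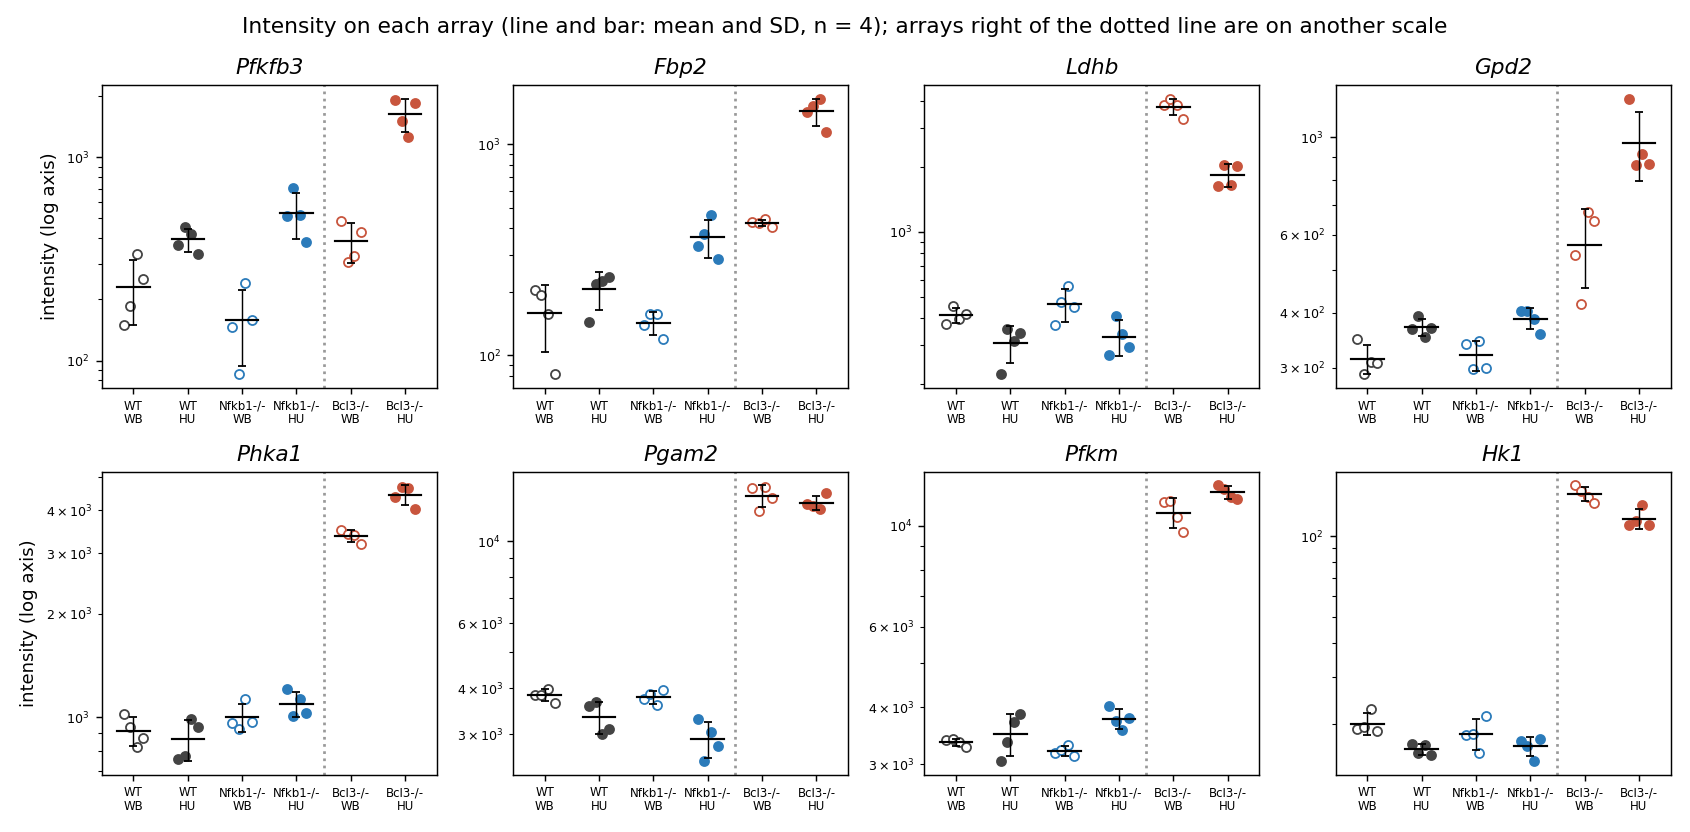
Intensity on each array (vertical log axis) for the 8 genes called in at least 1 genotype, by group, with open points for WB, filled points for HU, and the mean and SD of 4 arrays in black. Bcl3-/- arrays, right of the dotted line, are on another intensity scale. The HU points lie clear above the WB points for Pfkfb3 and Fbp2 in both knockouts, and below them for Ldhb in Bcl3-/- mice.

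The other hexose phosphate steps moved less. *Hk1* and *Hk2* encode hexokinases, which trap glucose in the cell. *Hk1* read 154, 147, 139.7 and 133 in WB and 109.7, 114, 130.3 and 109.7 in HU *Bcl3-/-* mice, groups that did not overlap. Its change there was -0.31 (SE 0.09, adjusted p = 0.037). Without WB replicate 1 or 2 or HU replicate 1, 2 or 4 of the *Bcl3-/-* mice the call was lost (changes from -0.30 to -0.28, adjusted p from 0.072 to 0.11). The other *Hk1* probe set gave -0.55 with an adjusted p of 0.077. *Hk1* was above 20 on 2 of the 16 WT and *Nfkb1-/-* arrays, and on the *Bcl3-/-* arrays it lay above the array medians. In WT mice *Hk1* was also -0.31 (adjusted p = 0.064), but at intensities of 19.1, 19.6, 22.8 and 18.8 in WB and 16.9, 15.6, 16.7 and 15.4 in HU mice, near or under 20. *Hk2*, the main hexokinase of muscle, had changes of -0.18, -0.24 and -0.09 in WT, *Nfkb1-/-* and *Bcl3-/-* muscle, none of them called.

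*Pfkm* encodes the muscle form of phosphofructokinase, the committed step of glycolysis. *Pfkm* intensities in *Nfkb1-/-* muscle were 3178, 3229, 3302 and 3124 in WB and 4019, 3726, 3564 and 3782 in HU mice, with every HU array higher. The rise was small, at 0.23 (SE 0.08, adjusted p = 0.049). It lay at the threshold and was lost in 19 of 24 fits that left out 1 array, all but those without WT WB replicate 4, WT HU replicate 1 or 4, or *Bcl3-/-* WB replicate 2 or 4. The changes in those 19 fits were 0.20 to 0.26 and the adjusted p 0.051 to 0.13. After a second quantile normalization the change was 0.13 (adjusted p = 0.29). In WT and *Bcl3-/-* muscle its values were 0.05 and 0.15, neither of them called. *Pfkl* and *Pfkp*, the liver and platelet forms, were under 20 on all 16 WT and *Nfkb1-/-* arrays and were called in no genotype.

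The lower part of the pathway carries fructose bisphosphate through the triose phosphates to pyruvate. Of its 8 genes tested, 1 was called, *Pgam2*, the muscle phosphoglycerate mutase, which fell in *Nfkb1-/-* muscle. There 7.02% of all genes were called lower. *Pgam2* read 3732, 3865, 3589 and 3943 in WB and 3293, 2540.2, 3035 and 2789 in HU *Nfkb1-/-* mice, without overlap, a change of -0.38 (SE 0.09, adjusted p = 0.0045). In WT muscle *Pgam2* measured 3839, 3843, 3987 and 3644 in WB and 3569.7, 3664, 3004 and 3095 in HU mice, a change of -0.20 (SE 0.09, adjusted p = 0.19). In *Bcl3-/-* muscle the change was -0.06, from 13274 ± 902 to 12724 ± 578 (mean ± SD, 4 arrays each). The differences between these responses did not pass, the largest being -0.32 between *Nfkb1-/-* and *Bcl3-/-* muscle (adjusted p = 0.16).

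*Pgk1*, phosphoglycerate kinase, was not called by its representative probe set, with changes of -0.18, -0.16 and 0.15 in WT, *Nfkb1-/-* and *Bcl3-/-* muscle. Its other 2 probe sets were called lower in *Nfkb1-/-* muscle, at -0.28 (adjusted p = 0.05 after rounding, just under the threshold) and -0.25 (adjusted p = 0.048). Both bear the suffix for possible binding to similar transcripts, and *Pgk1* has near copies in the genome. For 4 other muscle genes of these steps no call was made. *Aldoa*, the muscle aldolase, had log2 fold changes of 0.09, 0.09 and 0.07 in WT, *Nfkb1-/-* and *Bcl3-/-* muscle, from a probe set with the same suffix. In the same order *Tpi1*, triose phosphate isomerase, had 0.12, -0.02 and 0.10, *Eno3*, the muscle enolase, had 0.02, -0.06 and 0.07, and *Pkm*, pyruvate kinase, had -0.09, -0.07 and -0.11. The 95% intervals were widest for *Pkm*, at -0.28 to 0.07 in *Bcl3-/-* muscle. *Aldoc* and *Pgam1*, forms of other tissues, were called in no genotype.

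Glycogen genes gave 1 call among 9 tested, higher in *Bcl3-/-* muscle, where 7.5% of all genes were called higher. *Phka1* encodes the muscle regulatory subunit of phosphorylase kinase, the enzyme that activates glycogen phosphorylase. *Phka1* intensities in *Bcl3-/-* muscle were 3502, 3414, 3377 and 3184 in WB and 4375, 4654, 4638 and 4038 in HU mice, with every HU array above every WB array. In WT muscle *Phka1* measured 1024, 939.7, 819 and 873 in WB and 759, 771, 991 and 940.5 in HU mice, and the groups overlapped. *Phka1* measured 965, 928, 1134 and 972 in WB *Nfkb1-/-* mice and 1209, 1009, 1133 and 1029 in HU *Nfkb1-/-* mice, with overlap as well.

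The rise of *Phka1* in *Bcl3-/-* muscle was 0.39 (SE 0.10, adjusted p = 0.012), and all 3 probe sets of the gene were called there, at 0.39 to 0.48. In WT muscle the 3 probe sets gave changes of -0.08 to 0.21, of mixed sign, and in *Nfkb1-/-* muscle 0.13 to 0.25, none of them called. The WT response minus the *Bcl3-/-* response was -0.48 (SE 0.14, adjusted p = 0.097), and the other 2 probe sets gave -0.26 (adjusted p = 0.37) and -0.25 (adjusted p = 0.4). The partner subunits *Phkb* and *Phkg1* were not called, with changes of 0.07, 0.12 and 0.11 for *Phkb* and of -0.03, -0.15 and 0.11 for *Phkg1* in WT, *Nfkb1-/-* and *Bcl3-/-* muscle.

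*Pygm*, the muscle glycogen phosphorylase itself, had changes of -0.04, 0.06 and -0.01, the largest reaching a 95% interval of -0.11 to 0.22. *Gys1*, the muscle glycogen synthase, was not called in any genotype. *Gys1* intensities in *Nfkb1-/-* muscle were 134, 159.7, 151 and 138 in WB and 191, 178, 209 and 156 in HU mice, a change of 0.33 (SE 0.12, adjusted p = 0.089), and without HU replicate 4 it was 0.40 with an adjusted p of 0.046. In WT and *Bcl3-/-* muscle its changes were -0.15 and -0.08. *Ugp2*, which makes UDP-glucose for glycogen, had changes of -0.09, 0.19 and 0.07, and without *Nfkb1-/-* HU replicate 1 the change in that genotype was 0.29 with an adjusted p of 0.028. *Gbe1*, the branching enzyme, lay at 0.19, 0.19 and 0.20, and *Pgm1*, phosphoglucomutase, at 0.10, -0.13 and 0.14, none called. *Pygb*, the brain phosphorylase, was not called either.

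The glycerol phosphate shuttle carries the reducing power of glycolysis into the mitochondrion, with *Gpd1* encoding its cytosolic and *Gpd2* its mitochondrial enzyme. *Gpd2* intensities in WT muscle were 347, 291, 309.6 and 308 in WB mice and 368, 392, 352 and 369 in HU mice. *Gpd2* measured 339.6, 297, 344 and 299 in WB *Nfkb1-/-* mice and 403, 403, 387 and 358 in HU *Nfkb1-/-* mice. *Gpd2* measured 541, 418, 676 and 645 in WB *Bcl3-/-* mice and 1222, 863, 915 and 869.8 in HU *Bcl3-/-* mice. The HU arrays were above all WB arrays in each genotype, and HU replicate 1 of the *Bcl3-/-* mice was the highest by a wide margin.

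*Gpd2* rose 1.71-fold in *Bcl3-/-* muscle, a log2 change of 0.77 (SE 0.12, adjusted p = 0.00051). Its changes of 0.24 (SE 0.12, adjusted p = 0.31) in WT and 0.28 (SE 0.12, adjusted p = 0.16) in *Nfkb1-/-* muscle did not pass. The WT response minus the *Bcl3-/-* response was -0.53 (SE 0.17, adjusted p = 0.15). *Gpd1* was not called in any genotype, and its 3 probe sets differed in sign in each of them, with changes of -0.03 to 0.32 in WT muscle.

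**Figure D3:**
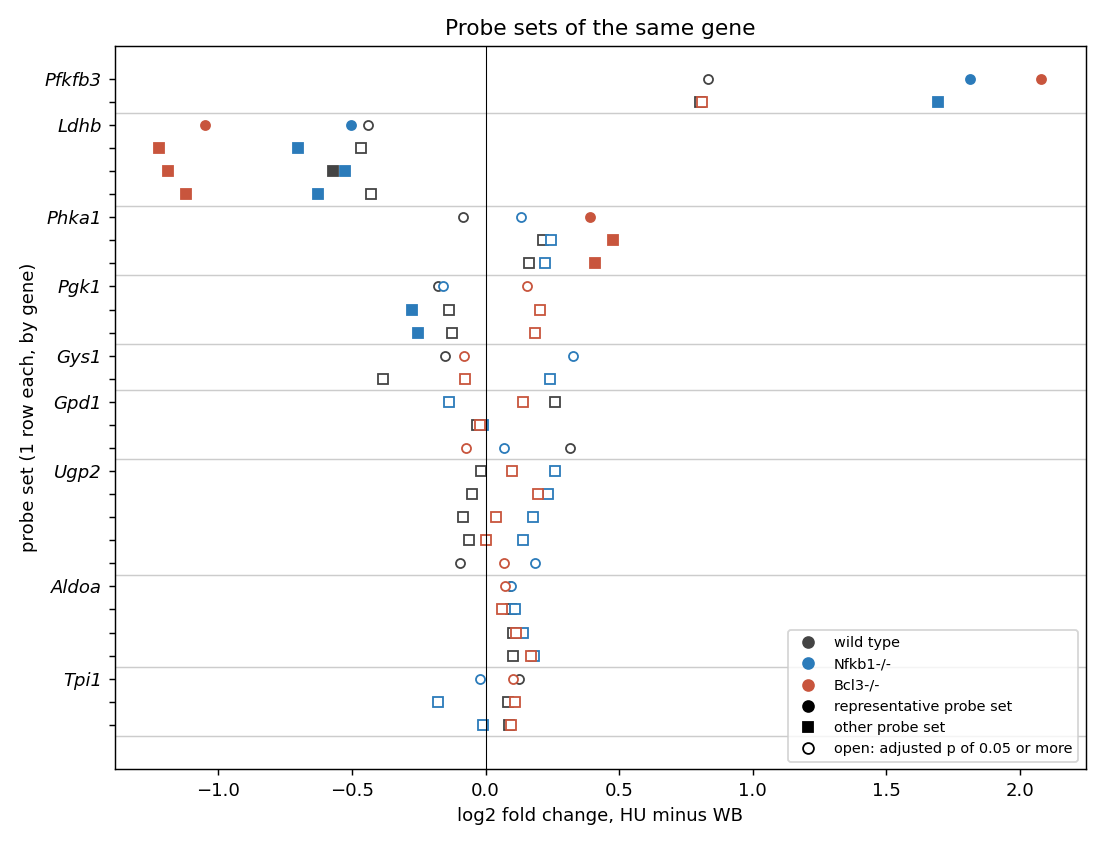
Log2 fold change with unloading (horizontal axis) of every tested probe set, 1 row each, of 9 genes that have several, in WT, Nfkb1-/- and Bcl3-/- muscle. Circles mark the representative probe set, squares the others, and filled symbols an adjusted p under 0.05. The 4 Ldhb probe sets all lie left of 0 and the 3 Phka1 probe sets are all filled in Bcl3-/- muscle, while the 2 Pfkfb3 probe sets lie apart there, at 2.08 and 0.81.

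In all, 53 probe sets of the 29 genes were tested, and 13 genes had several. For 8 of those 13 genes the probe sets had the same sign within each genotype, and for *Gpd1*, *Pfkl*, *Pfkp*, *Phka1* and *Phkg1* they differed in sign in at least 1 genotype, WT muscle among them.

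Muscle can trade one form of an enzyme for another, so the log2 ratio of paired isozyme genes was followed within each array. Of 12 pairs 9 could be formed, and 27 two-sided exact permutation tests were made over the 3 genotypes. The *Ldha* to *Ldhb* ratio was higher by 0.46 in HU than in WB WT mice (exact p = 0.0286), by 0.51 in *Nfkb1-/-* mice (exact p = 0.0571) and by 1.17 in *Bcl3-/-* mice (exact p = 0.0286). The HU minus WB values of the *Gpd1* to *Gpd2* ratio in the same order were 0.08, -0.21 and -0.84. With 4 arrays against 4 the smallest exact p is 0.0286, and after adjustment over the 27 tests the smallest was 0.154, so none passed. Pairs with *Hk1*, *Pfkl*, *Pfkp*, *Aldoc*, *Fbp1* or *Pygb* rest on a gene that was low on the WT and *Nfkb1-/-* arrays, and their ratios are not read here.

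**Figure D4:**
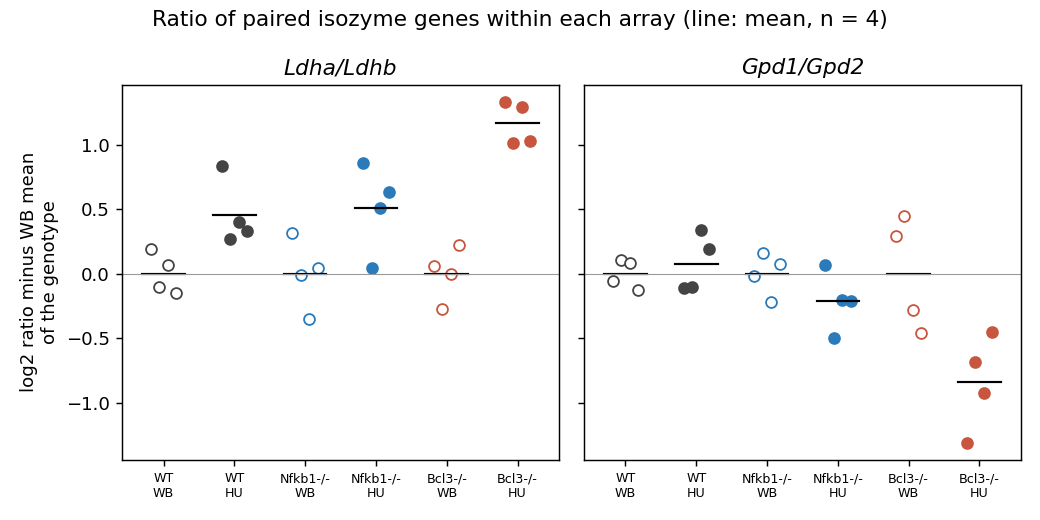
Log2 ratio of Ldha to Ldhb and of Gpd1 to Gpd2 on each array, less the WB mean of the genotype (vertical axis), with open points for WB, filled points for HU and lines for the mean of 4 arrays. The Ldha to Ldhb ratio is higher by 1.17 in HU than in WB Bcl3-/- mice, and by 0.46 and 0.51 in WT and Nfkb1-/- mice.

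Genes next to the pathway were taken from a list of 68, of which 49 were tested. Of these, 1 rose and 3 fell in WT muscle, 3 rose and 3 fell without p50, and 3 rose and 1 fell without Bcl-3. As shares of the 49, these are 2.04% and 6.12% in WT, 6.12% and 6.12% in *Nfkb1-/-* and 6.12% and 2.04% in *Bcl3-/-* muscle, to be read beside the shares of all genes given above (2.18% and 1.75%, 5.22% and 7.02%, 7.5% and 2.99%). *Mdh1*, the cytosolic malate dehydrogenase of the other reducing shuttle, fell in all 3 genotypes, by 0.36, 0.41 and 0.41 on the log2 scale in WT, *Nfkb1-/-* and *Bcl3-/-* muscle (adjusted p = 0.019, 0.0027 and 0.0039). *Mdh1* read 1339, 1315, 1261 and 1253 in WB and 979, 1153, 942 and 968 in HU WT mice, without overlap.

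Among the genes that pass pyruvate on to the mitochondrion, *Dlat*, the acetyltransferase of the pyruvate dehydrogenase complex, fell in WT (-0.37, adjusted p = 0.028) and *Nfkb1-/-* muscle (-0.48, adjusted p = 0.0018). *Pdha1*, the catalytic subunit, fell in WT muscle (-0.25, adjusted p = 0.031), and *Dld*, another subunit, in *Nfkb1-/-* muscle (-0.33, adjusted p = 0.033). *Stbd1*, which tethers glycogen to membranes, rose in WT (0.82, adjusted p = 0.0044) and *Bcl3-/-* muscle (0.51, adjusted p = 0.039). *Stbd1* intensities in WT muscle were 79.3, 96.8, 72.2 and 63.8 in WB and 214, 119.7, 113 and 117 in HU mice, with HU replicate 1 far above the others.

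*Slc2a3*, a glucose transporter, rose in *Nfkb1-/-* muscle from 15.99, 15.9, 31.8 and 12.1 in WB to 49.9, 77.8, 48.3 and 45.4 in HU mice, a change of 1.61 (SE 0.36, adjusted p = 0.0043). *Txnip*, which restrains glucose uptake, rose there by 0.97 (adjusted p = 0.0016), and *Epm2a*, the glycogen phosphatase laforin, by 0.48 (adjusted p = 0.04) at intensities under 20. *Txnip* was not called in WT or *Bcl3-/-* muscle, but every HU array lay above every WB array in both. *Slc2a3* had means of 102 in WB and 178 in HU *Bcl3-/-* mice, also without a call. In *Bcl3-/-* muscle *Gsk3b*, a kinase that inhibits glycogen synthase, rose by 0.93 (adjusted p = 0.0025) and *Six4*, a factor of the fast fibre programme, by 0.42 (adjusted p = 0.031). None of the 49 related genes was called for a difference between responses. Of all genes, 0.207% were for WT minus *Nfkb1-/-*, 1.17% for WT minus *Bcl3-/-* and 1.74% for *Nfkb1-/-* minus *Bcl3-/-*. *Gapdh* was not analysed here, as its probe sets are controls or are listed with several genes.

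Markers of other cells were called in some of the same comparisons. Of all genes, 1.75%, 7.02% and 2.99% were called lower in WT, *Nfkb1-/-* and *Bcl3-/-* muscle. In the same order, 2.18%, 5.22% and 7.5% were called higher. Single calls in these short lists are not read as shifts. Of 10 tendon and fibroblast markers, 3 were called lower in WT, 6 in *Nfkb1-/-* and 6 in *Bcl3-/-* muscle. None of the 10 was called higher in any genotype. Their summed intensity was 8293 to 9909 in WB and 6203 to 6645 in HU WT mice, 7988 to 9294 and 3594 to 6607 in *Nfkb1-/-* mice, and 39104 to 51935 and 25750 to 37801 in *Bcl3-/-* mice. Of 14 macrophage markers tested, 1 was called higher in WT, 1 in *Nfkb1-/-* and 0 in *Bcl3-/-* muscle. Of 6 adipocyte markers tested, 3 (*Adipoq*, *Cidec* and *Retn*) were called higher in *Nfkb1-/-* muscle, where *Pfkfb3* and *Fbp2* rose, with a median change of 0.42 over the 6. Their summed intensity in *Nfkb1-/-* mice was 2644 to 2892 in WB and 2312 to 3172 in HU mice, ranges that overlap, and *Cidec* stayed under 20 on average in both groups. In WT and in *Bcl3-/-* muscle 1 of the 6 was called lower and 0 higher. Of 10 satellite cell and regeneration markers 1 was called higher in each genotype, and of 5 nerve and Schwann cell markers 1 was called higher in each knockout. Of 8 endothelial markers 1 was called lower in *Nfkb1-/-* and 1 higher in *Bcl3-/-* muscle, and 0 of 2 erythroid markers were called. Fast fibre markers, of which 11 were tested, gave 0 calls in WT and in *Nfkb1-/-* muscle, and 1 higher and 1 lower without Bcl-3. The part of these cells in the changes of *Pfkfb3*, *Fbp2*, *Gpd2* and *Phka1* was not tested.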

How the data were processed

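RNA of 24 mice, in 6 groups of 4, was hybridised to 1 Affymetrix array each after two-cycle cDNA synthesis. The authors read the scanner (GCOS) .cel files into GenePattern, and ran RMA, which includes quantile normalization. The deposited table gives linear intensities of 22690 probe sets. Its *Bcl3-/-* columns lie on another scale, for a reason not given in the sources used here.

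Values were taken to log2 and fitted with limma 3.58.1 in R 4.3.3, with 1 mean per group over all 24 arrays (18 residual and 5.89 prior degrees of freedom). The 19294 probe sets with 4 or more arrays above 20 entered the fit. The threshold was an adjusted p (Benjamini-Hochberg) of 0.05. The fit was tested on simulated data. Mice were separate animals, and the groups are those of the labels. Gene names came from the platform annotation, updated by gene ID. Each gene is given by its probe set with the highest mean, and 1 probe set listed with *Hk1* and other genes was not used. The members and gene lists were chosen with earlier results of these data known. Every listed gene is named, and other genes only where called from a list of related genes. The replicate numbers did not pair the mice: deviations of arrays with the same number correlated at -0.17 to 0.22 over 12 pairs. Alternatives were other filters, variances, normalizations, scales and tests, and each array left out in turn. No detection values were used. Promoter sequences came from RefSeq.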

Additional observations from a re-analysis of the deposited data

Results flagged for a closer look

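Of 174 groups of 4 arrays tested with Dixon's criterion, 12 had 1 array far from the other 3, where chance gives about 1 in 20 groups. In WT mice these were *Pgk1* in WB replicate 4 (1825 against 1996 to 2031), *Eno3* in HU replicate 2 (6163 against 5953 to 5973) and *Fbp2* in HU replicate 1 (144 against 219 to 236). In *Nfkb1-/-* mice they were *Pgam1* in WB replicate 3 (18.2 against 23.7 to 24.4) and *Fbp1* in HU replicate 4 (4.67 against 3.34 to 3.44).

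In *Bcl3-/-* mice, WB replicate 2 stood apart for *Fbp1* (33.4 against 22.5 to 23.7), *Pgm1* (4554 against 5901 to 6143) and *Ugp2* (4989.5 against 5964 to 6051). HU replicate 1 stood apart for *Pgm1* (6048 against 6278 to 6310) and *Gpd2* (1222 against 863 to 915), and HU replicate 4 for *Pgam1* (261 against 187 to 194) and *Eno3* (18044 against 17638 to 17689). *Gpd2* stayed called in *Bcl3-/-* muscle in all 24 fits that left out 1 array.

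The response of *Fbp2* differed between WT and *Bcl3-/-* muscle by a test of the difference itself, at -1.31 (adjusted p = 0.031 by limma). That call was lost in 8 of 24 fits that left out 1 array, and with only the groups compared (adjusted p = 0.071 by limma). The WT minus *Nfkb1-/-* difference was not called (adjusted p = 0.2 by limma). Array scale, strain and the *Bcl3* genotype cannot be told apart in the called difference.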

How the results depend on the processing

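The calls of *Ldhb* in *Bcl3-/-* muscle held in 41 of 41 alternatives, those of *Pfkfb3* and *Fbp2* in 40 of 41 in *Bcl3-/-* and 39 of 41 in *Nfkb1-/-* muscle, *Gpd2* in 39, *Phka1* in 39, *Pgam2* in 38, *Ldhb* in *Nfkb1-/-* muscle in 32, *Hk1* in 29 and *Pfkm* in 14. The *Fbp2* difference between WT and *Bcl3-/-* responses held in 29 of 39 alternatives. No called value changed sign. The medians near 0 did: that of WT muscle ran from -0.0749 to 0.0215 over all alternatives (0.0215 without HU replicate 1) and that of *Nfkb1-/-* muscle from -0.0437 (without HU replicate 1) to 0.0594. With the methods' t-test and Benjamini-Hochberg adjustment 0 genes were called higher and 0 lower in *Nfkb1-/-* muscle, and 0 higher and 1 lower in *Bcl3-/-* muscle, and with its q-values 1 higher and 0 lower in *Nfkb1-/-* and 1 lower in *Bcl3-/-* muscle. With array weights 2 genes were higher and 3 lower in WT, 5 higher and 1 lower in *Nfkb1-/-* and 1 lower in *Bcl3-/-* muscle, 1 differed between the WT and *Nfkb1-/-* responses and 1 between their WB mice, and the *Bcl3-/-* median was 0.0338. That median was 0.0469 after a second quantile normalization, 0.0451 after one within each scale and 0.0489 after centring on array medians, and 1, respectively 2, genes were lower in WT muscle with the first 2. Fitting only the groups compared left 1 gene lower in each knockout and 0 in the WT minus *Bcl3-/-* difference. A trend with robust variance left 1 lower in *Bcl3-/-* muscle, a fold of at least 1.4 left 1 lower in each knockout, and log2 of the intensity plus 16 gave 2 in the WT minus *Bcl3-/-* difference. A filter within each scale called 1 gene higher in WT muscle. The mean over all probe sets gave 1 (*Pgk1*) between the *Nfkb1-/-* and *Bcl3-/-* responses. Without 2 WT HU arrays (replicates 1 and 2) 1 gene was lower in WT muscle and 0 differed between the WT and *Bcl3-/-* responses. The replicate number as a block gave 1 lower in WT muscle (*Ldhb*, adjusted p = 0.036) and 1 lower in *Bcl3-/-* muscle, but the numbers mark no pairing. Leaving out 1 array gave 0 to 1 higher in WT, 1 to 2 lower in *Nfkb1-/-* and 1 to 2 lower in *Bcl3-/-* muscle, 0 to 1 in both differences from WT, and a *Bcl3-/-* median of 0.0286 (without WB replicate 2) to 0.0950 (without WB replicate 1). The cause of these shifts was not tested. Genes under 20 on the WT and *Nfkb1-/-* arrays are limited by signal.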
